A study of Bos taurus with 12 samples.

Results

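The genes described here encode the moving parts of motile cilia and the factors that switch these parts on. They were chosen by symbol, from a list of 42 genes grouped by their role in the cilium, and 29 of the 42 had a row among the 13930 gene symbols of the count table. The other 13 (MCIDAS, CCNO, RFX3, DNAH5, DNAH11, DNAI2, CCDC114, WDR78, CCDC40, RSPH4A, SPEF2, HYDIN and PIFO) were not analysed here. All 29 passed the filter on low counts and were among the 10959 genes tested.

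The data are read counts from biopsies of the endometrium, the inner layer of the uterus, taken from dairy cows (Bos taurus) kept on pasture, and refer to day 4 of the cycle. The study asked how the progesterone concentration of early diestrus is associated with endometrial gene expression. It had 4 classes of progesterone on that day with 3 libraries each. Concentrations were under 0.25 ng/ml in the very low class, under 1.4 in the low class, over 2.5 ng/ml in the high class and over 20 ng/ml in the very high class. The bound of the low class is given in mg/dl where the others are in ng/ml, so only the order of the classes was used. The titles call the very low class ANE, the low class LPP4, the high class HPP4 and the very high class SO, and ANE and SO are not explained in the sources used here. Whether the 3 replicates of a class came from separate cows is not in the labels, so a p-value reflects the spread between these samples, which may be technical. The labels name no breed, age, hormone treatment or cell sort for any class, and RNA of the whole biopsy was sequenced.

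A motile cilium is a hair-like projection built on an axoneme, a ring of microtubule doublets around a central pair, in which dynein motors slide neighbouring doublets against each other so that the cilium beats. In the endometrium such cilia stand on multiciliated cells scattered through the luminal and glandular epithelium among secretory cells, where they move fluid and mucus. FOXJ1 is the master transcription factor of the program, RFX factors act beside it, and the axonemal genes are its targets. In libraries from whole tissue, fewer ciliated cells and less ciliary RNA per cell cannot be told apart.

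Total counts ran from 3772564 to 8379489 per library. Levels are in CPM, reads scaled to library size after TMM normalisation, and no gene lengths were used, so levels are compared between libraries and not between genes. A library with no read of a gene allows up to 3 reads, which is 0.530 CPM in very low replicate 1. That library stood apart in its tissue makeup. The 14 smooth muscle markers summed to 94559 CPM in it, the highest of the 12 libraries, and the 21 epithelial markers summed to 486 CPM, the lowest, with none of them at 0. By class, the smooth muscle sum ran from 1056 to 94559 CPM in very low, from 919.8 to 2362 in low, from 16075 to 39905 in high and from 16324 to 31079 in very high. The epithelial sum ran from 486 to 9127 CPM in very low, from 3110 to 5518 in low, from 2688 to 3752 in high and from 2777 to 3672 in very high. The part of this tissue makeup in the ciliary values was not tested. Values with marker scores as covariates and values without single libraries are given beside the results.

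The level of most motile cilia genes varied widely between libraries of the same class. Of the 29 genes, 25 were highest in the same library, low replicate 2, and 21 of these 25 were lowest in very low replicate 1. Over all 10959 genes, 5.89% were highest in low replicate 2, 23.1% were lowest in very low replicate 1 and 3.15% were both. Among these 25 genes, low replicate 3 was the lowest of its class in all 25, very high replicate 1 the lowest of its class in all 25 and high replicate 2 the lowest of its class in 24. The ratio of low replicate 2 to low replicate 3 ran from 5.08 for IQCG to 30.8 for CCDC113, with a median of 10.1. Within the very high class, the ratio of the highest to the lowest library had a median of 3.23 over the 25 genes. Together the 25 genes summed to 47.0, 653.1 and 444.8 CPM in the very low libraries, 841.5, 1546 and 158.5 in the low, 408.7, 152.1 and 320.6 in the high, and 186.2, 504.1 and 448.0 in the very high. The 25 genes were gathered by this shared order after their values were seen, so the order is a description and carries no test.

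**Figure D1:**
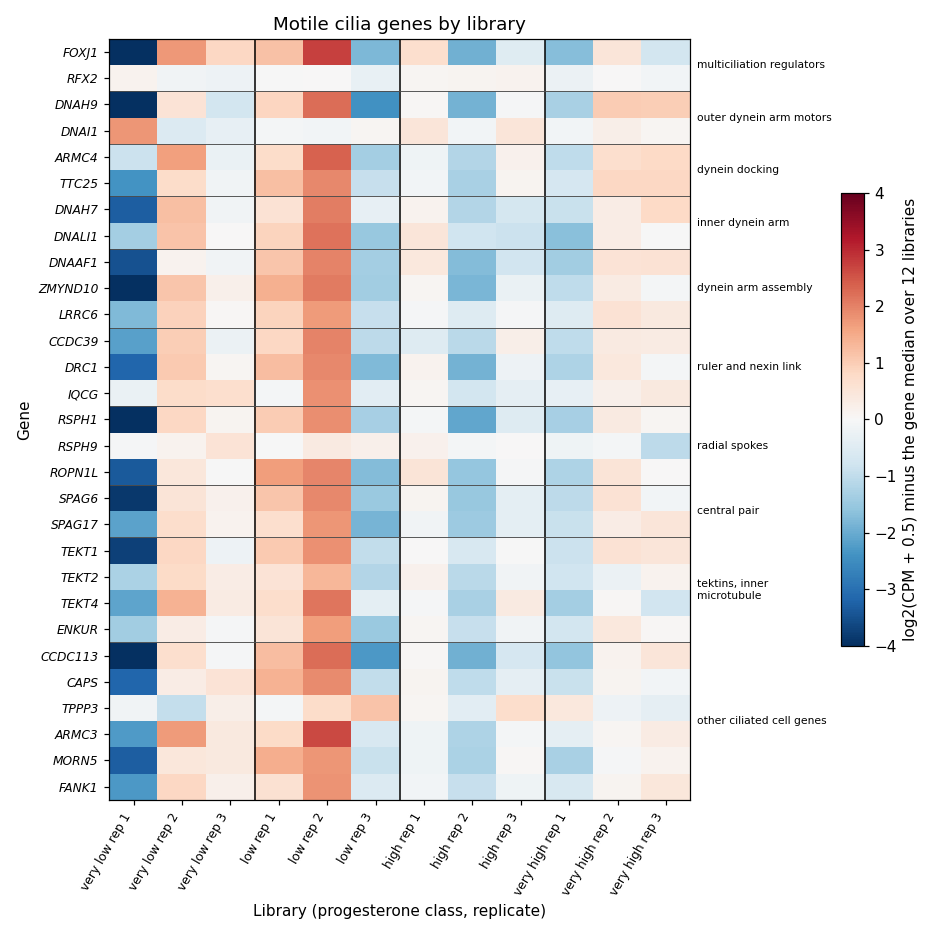
Each row is a gene, ordered by role, and each column a library, and colour gives log2(CPM + 0.5) minus the median of that gene over the 12 libraries, with values beyond 4 in either direction drawn in the end colour. Low replicate 2 is the darkest red column, very low replicate 1 the darkest blue, and RFX2, DNAI1, RSPH9 and TPPP3 do not follow them.

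FOXJ1, the factor that starts the motile cilium program, had no read in very low replicate 1 and 66.6 and 36.0 CPM in very low replicates 2 and 3. It had 45.6, 135 and 5.35 CPM in the low libraries, 31.8, 4.85 and 14.0 CPM in the high, and 5.72, 28.05 and 11.74 CPM in the very high. Every pair of classes overlapped, and low replicates 2 and 3 were 25.2-fold apart. The class means were 34.2 ± 33.3 CPM in very low, 61.9 ± 66.2 in low, 16.9 ± 13.7 in high and 15.2 ± 11.55 in very high (SD, n = 3 each). The log2 fold change of very high over low was -2.03 (SE 1.42, edgeR adjusted p = 0.630), and without low replicate 2 it was -0.71. RFX2, an RFX factor that works beside FOXJ1 but is also found outside ciliated cells, had no such spread. It had 360.9, 295.3 and 280.5 CPM in the very low libraries, 319.6, 332.0 and 264.6 in the low, 343.6, 353.2 and 355.2 in the high, and 277.8, 331.6 and 299.1 in the very high. All 3 high libraries lay above all 3 low ones, by a log2 fold change of 0.20 (SE 0.18, edgeR adjusted p = 0.732), and all 3 very high libraries lay below the high ones.

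The outer dynein arms carry the motors that set the beat. DNAH9, a heavy chain motor of the outer arm, had 0.353, 43.1 and 17.4 CPM in the very low libraries, 53.1, 140.1 and 5.07 in the low, 29.8, 7.52 and 28.4 in the high, and 11.4, 59.5 and 57.7 in the very high. Its log2 fold change of very high over very low was 1.09 (SE 1.26, edgeR adjusted p = 0.626), the highest of the 29 members, and the ranges overlapped. The difference for low over very low was 1.72 (SE 1.27, edgeR adjusted p = 0.612) and 0.55 without low replicate 2. DNAI1, an intermediate chain of the same arm, did not follow DNAH9: it had 259.8, 51.6 and 59.8 CPM in the very low libraries, 72.6, 70.4 and 80.9 in the low, 106.5, 70.3 and 105.7 in the high, and 70.9, 89.0 and 79.3 in the very high. Its highest library was the one in which most other ciliary genes were lowest. The DNAI1 log2 fold change of very high over very low was -0.63 (SE 0.51) and changed sign to 0.50 without very low replicate 1. In the RefSeq gene table of assembly ARS-UCD2.0, DNAI1 overlaps 2 uncharacterised genes and DNAH9 overlaps ZNF18, a tested gene. The strand setting of the counting is not known, so reads from such overlaps may have been counted for either gene.

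The docking proteins that fix outer arms to the doublet had the same highest library as DNAH9. TTC25 had 2.65, 26.8 and 14.3 CPM in the very low libraries, 36.9, 61.2 and 8.10 in the low, 14.6, 6.12 and 17.3 in the high, and 9.84, 28.9 and 28.9 in the very high. ARMC4 was measured at lower counts and ran from 0.724 CPM in low replicate 3 to 15.6 CPM in low replicate 2. Of the inner arm proteins, the heavy chain DNAH7 ran from 0.884 CPM in very low replicate 1 to 55.3 CPM in low replicate 2, and the light intermediate chain DNALI1 from 0.343 CPM in very high replicate 1 to 11.4 CPM in low replicate 2. In all 4 genes the low class alone spanned most of the CPM range of the 12 libraries.

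The cytoplasmic factors that assemble dynein arms before they enter the cilium had the same highest and lowest library as DNAH9. In low replicate 2 DNAAF1 had 29.8 CPM and ZMYND10 63.8 CPM, against 0.177 CPM for either gene in very low replicate 1. LRRC6 spanned 4.60 to 55.8 CPM with the same extremes. CCDC39, which with its partner sets the repeat length along the doublet, ran from 3.00 to 61.5 CPM, and DRC1, a core protein of the nexin link between doublets, from 2.30 to 96.3 CPM. IQCG, another protein of the nexin link, had 8.48, 17.6 and 16.8 CPM in the very low libraries, 9.75, 38.3 and 7.53 in the low, 11, 5.99 and 8.05 in the high, and 8.24, 12.1 and 13.7 in the very high. Its low replicate 2 stood alone, and the rest of the libraries lay between 5.99 and 17.6 CPM. For high over low IQCG had the smallest p of the members, with a log2 fold change of -1.15 (SE 0.58, edgeR adjusted p = 0.530).

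The radial spokes pass signals from the central pair to the dynein arms, and their members split. RSPH1 had no read in very low replicate 1 and 48.2 CPM in low replicate 2. ROPN1L, a spoke protein known from the axoneme of sperm and cilia, had 0.884, 19.1 and 13.6 CPM in the very low libraries, 44.7, 54.8 and 3.76 in the low, 19.7, 4.34 and 13.2 in the high, and 5.49, 19.7 and 13.9 in the very high. RSPH9, a spoke head protein, had 18.2, 20.7 and 27.3 CPM in the very low libraries, 18.5, 24.3 and 21.6 in the low, 21.1, 17.9 and 19.0 in the high, and 16.5, 17.7 and 8.84 in the very high. All 3 very high libraries of RSPH9 lay below every library of the other classes, though the nearest values, 17.7 CPM in very high and 17.9 CPM in high, were almost equal. The log2 fold change of RSPH9 was -0.62 for very high over very low (SE 0.29, edgeR adjusted p = 0.220), -0.58 for very high over low (edgeR adjusted p = 0.462) and -0.43 for very high over high. Without very high replicate 3, the library at 8.84 CPM, the first of these was -0.32.

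Of the central pair proteins, SPAG6 ran from 0.530 CPM in very low replicate 1 to 56.3 CPM in low replicate 2, and SPAG17 from 1.24 to 25.6 CPM between the same libraries. Tektins are filaments inside the doublets. TEKT1 ran from 0.353 to 39.8 CPM and TEKT2 from 3.53 to 23.9 CPM. TEKT4 had no read in very low replicate 1 and 5.16 and 2.21 CPM in very low replicates 2 and 3, then 3.03, 9.08 and 1.16 CPM in the low libraries, 1.61, 0.383 and 2.32 in the high, and 0.343, 1.75 and 0.792 in the very high. It had the smallest p of the members that were lower in very high than in low after RSPH9, with a log2 fold change of -2.19 (SE 1.19, edgeR adjusted p = 0.509), and the ranges overlapped. Enkurin (ENKUR), a protein of the doublet lumen, ran from 3.76 CPM in low replicate 3 to 38 CPM in low replicate 2.

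Among the other genes linked to ciliated cells, CAPS, a calcium-binding protein abundant in ciliated epithelium, had 10.96, 126 and 152 CPM in the very low libraries, 273, 385 and 52.4 in the low, 111, 50.9 and 80.8 in the high, and 55.6, 111 and 96.4 in the very high. CCDC113 ran from no read in very low replicate 1 to 44.5 CPM in low replicate 2, MORN5 from no read in the first to 16.2 CPM in the second of these libraries, and FANK1 from 1.06 to 26.1 CPM. ARMC3, an armadillo repeat protein, had 0, 7.23 and 2.60 CPM in the very low libraries, 3.56, 14.2 and 1.01 in the low, 1.61, 0.510 and 1.77 in the high, and 1.37, 1.99 and 2.51 in the very high. Within the low class, replicate 2 was again the highest and replicate 3 the lowest. TPPP3, a tubulin polymerisation protein also made outside ciliated cells, differed from these genes, with 250.4, 143 and 327 CPM in the very low libraries, 264, 469 and 611 in the low, 294, 206 and 452 in the high, and 372, 243 and 216 in the very high. The TPPP3 log2 fold change of low over very low was 0.90 (SE 0.42, edgeR adjusted p = 0.438), with overlapping ranges.

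**Figure D2:**
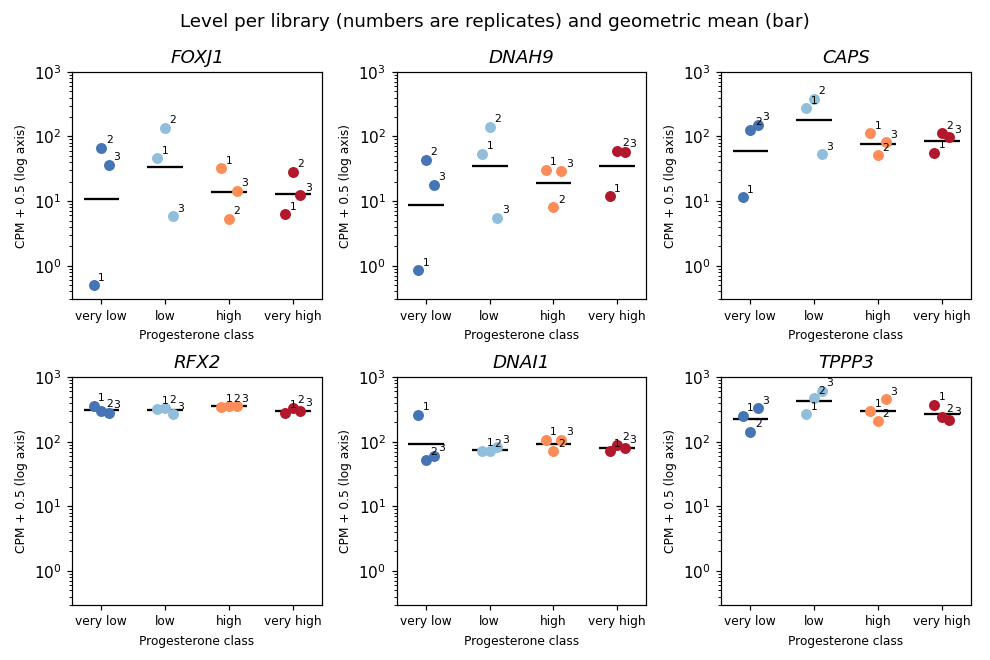
Each point is a library at its CPM + 0.5 on a log axis, the digit is its replicate, the bar is the geometric mean of the class, and classes run from very low to very high progesterone. FOXJ1, DNAH9 and CAPS spread widely within the low and very low classes, while RFX2 stays between 264.6 and 360.9 CPM and only very low replicate 1 stands apart in DNAI1.

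No motile cilia gene passed the adjusted threshold of 0.05 in any comparison of classes. For very high against very low, 0 of 29 passed in edgeR, where 1.52% of all genes did, and the smallest adjusted p among the members was 0.220, for RSPH9. For the slope over the class ranks, 0 of 29 passed where 7.48% of all genes did, and the smallest adjusted p was 0.161, again for RSPH9 (slope -0.20 log2 units per class, SE 0.089). For very high against low, high against low, high against very low, very high against high, low against very low and the joint test of the 4 classes, 0 of 29 passed and 0% of all genes did. At an unadjusted p under 0.05, edgeR gave 0 members in each of the 6 pairs and the joint test and 1, RSPH9, for the slope. Over all 10959 genes it gave 2609 for very high against very low, 1304 for very high against low and 1125 for high against low. It gave 2058 for high against very low, 87 for very high against high, 1269 for low against very low, 1954 for the joint test and 3057 for the slope. DESeq2 and limma-voom also called 0 members in every comparison. Over all genes DESeq2 called 1510 in very high against very low, 370 in very high against low, 241 in high against low, 788 in high against very low, 0 in very high against high, 293 in low against very low, 2008 for the slope and 1303 in the joint test. Limma-voom called 1 of all genes in very high against very low, 360 for the slope and 0 elsewhere. At an unadjusted p under 0.05 DESeq2 and limma-voom each gave 1 member for very high against very low, 1 for low against very low, 1 for the slope and 0 elsewhere. The number of all genes at that p was not counted for these tools. The standard errors of the log2 fold changes ran from 0.18 for RFX2 to 1.42 for FOXJ1. A p above the threshold does not show that the classes had equal levels.

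CPM ranges of the compared classes did not overlap for 1 of 29 members in very high against very low, RSPH9, beside 25.7% of all genes. They did not overlap for 1 in very high against low, again RSPH9, beside 22.8%, and for 1 in high against low, RFX2, beside 20.0%. There was 0 in high against very low, beside 20.4%, and 0 in low against very low, beside 9.74%. In very high against high there were 2, RSPH9 and RFX2, both lower, beside 7.09%.

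The signs of the fitted differences were uneven in several pairs, and their medians moved when single libraries of the low or very low class were left out. For high against low, 27 of 29 members had a negative log2 fold change and the median was -1.54, beside -0.02 over all genes. Without low replicate 2 that median was -0.54, and without low replicate 3 it was -2.02. For very high against low, 28 of 29 were negative with a median of -1.02, beside -0.01 over all genes, and the median was -0.18 without low replicate 2. For low against very low, 26 of 29 were positive with a median of 0.999, beside -0.06 over all genes, and the median was 0.16 without low replicate 2 and 1.89 without very low replicate 2. For very high against very low, 12 were positive and 17 negative with a median of -0.04, beside -0.12 over all genes, and the median was -0.50 without very low replicate 1 and 0.66 without very low replicate 2. For high against very low, 24 of 29 were negative with a median of -0.39, beside -0.12 over all genes, and it was 0.30 without very low replicate 2. For very high against high, 22 of 29 were positive with a median of 0.38, beside -0.01 over all genes, and it was -0.001 without very high replicate 2. These pairs share classes, and the members share their libraries, so a common sign among members is not a count of independent results.

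**Figure D3:**
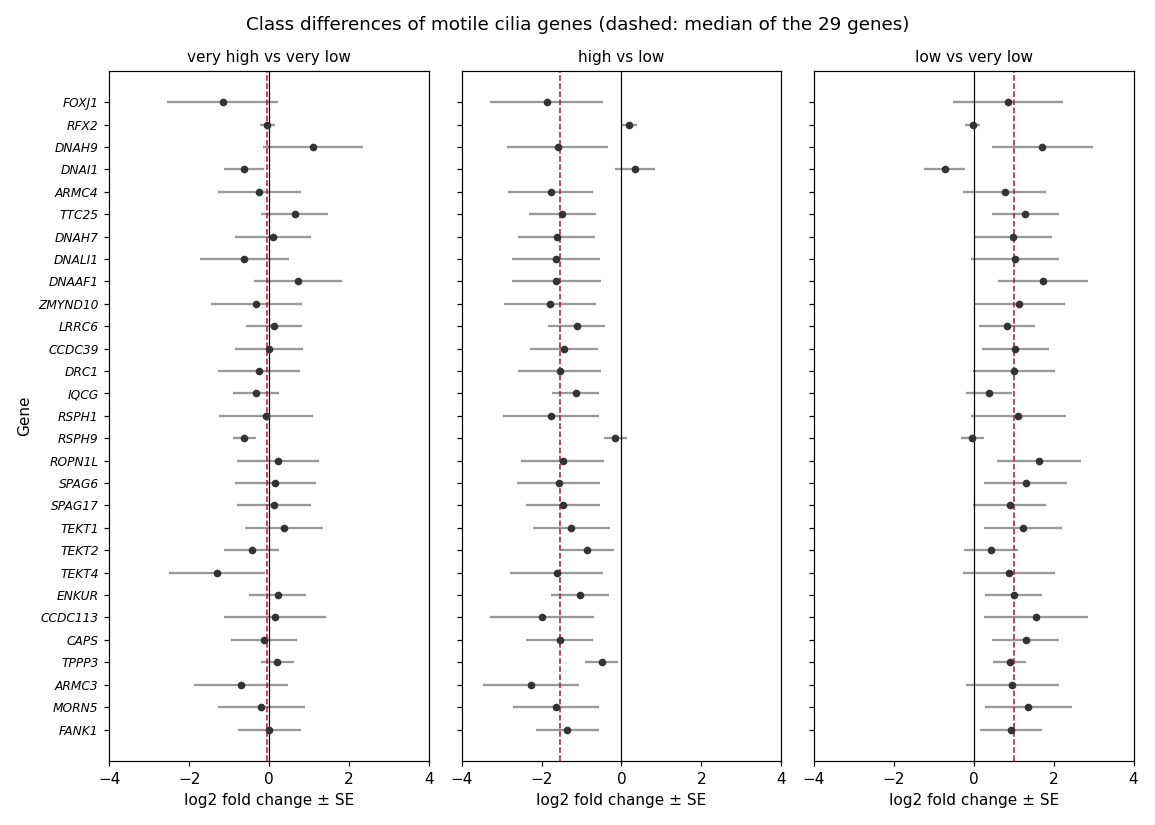
Points are log2 fold changes of the 29 genes from edgeR with bars of 1 SE, for very high over very low, high over low and low over very low, and the dashed line is the median of the 29. The medians are -0.04, -1.54 and 0.999, and the narrow bars belong to RFX2, RSPH9, TPPP3 and DNAI1.

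Ciliary levels were set beside epithelial levels because ciliated cells are epithelial. The epithelial score, the mean log2 CPM of the 21 markers, was 3.34, 8.12 and 6.91 in the very low libraries, 7.01, 7.24 and 6.23 in the low, 6.56, 6.02 and 6.20 in the high, and 6.15, 6.42 and 5.999 in the very high. The ciliary score, the mean log2(CPM + 0.5) of the 25 genes with the shared order, was 0.55, 4.29 and 3.52 in the very low libraries, 4.36, 5.41 and 2.17 in the low, 3.48, 2.10 and 3.19 in the high, and 2.39, 3.78 and 3.65 in the very high. The library lowest in both was very low replicate 1. The highest epithelial score was in very low replicate 2, not in low replicate 2. The ciliary minus the epithelial score was -1.83 in low replicate 2 and -4.05 in low replicate 3. In very low replicate 1 it was -2.78, against -3.83 and -3.395 in very low replicates 2 and 3. Since 6 of the 29 members had no read in very low replicate 1, the added 0.5 sets part of its value. Over all 29 members the score minus the epithelial score was -1.62 in low replicate 2, the highest of the 12 libraries, and -3.47 in low replicate 3. It was -2.20 in very low replicate 1, and the lowest was -3.56 in very low replicate 2. The 25 genes were gathered by their high level in low replicate 2, so the distance of that library is a description. With the epithelial score as a covariate, the members' median was -0.61 for high over low, -0.20 for very high over low and 0.57 for very high over very low, and no member passed. With smooth muscle and epithelial scores together as covariates, the same medians were -4.28, -3.43 and -1.36, again with no member past the threshold. The smooth muscle score was 5.19 to 6.35 in the low libraries and 9.35 to 10.64 in the high and very high ones. Score and class therefore cannot be told apart between low and these classes. The edgeR fit with both scores gave an unadjusted p under 0.05 for 15 of 29 members in high against low and 12 in very high against low. It did so for 3 in very high against very low, 9 in high against very low and 7 in very high against high. The number was 20 in low against very low, 11 in the joint test and 0 for the slope. How many of all genes reached that p in the same fit was not counted, so these numbers have no background. Past the adjusted threshold, that fit called 0 of all genes in each of the 6 pairs and the joint test and 23 for the slope.

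**Figure D4:**
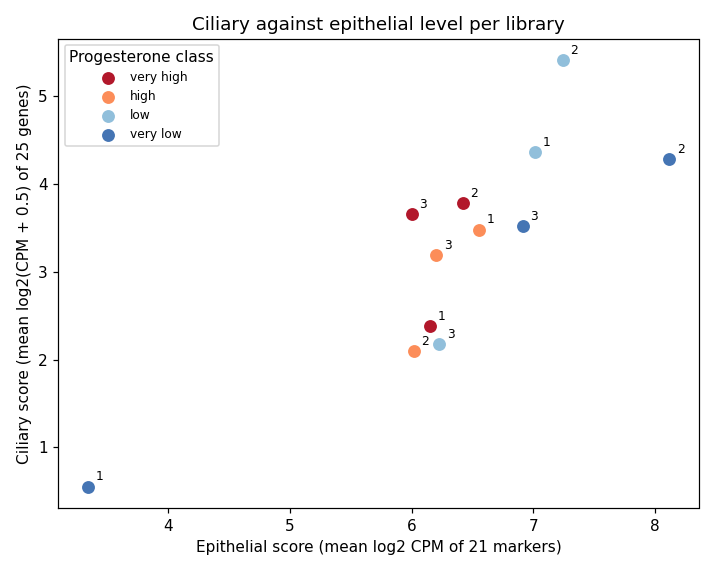
Each point is a library, with the mean log2 CPM of 21 epithelial markers on the horizontal axis and the mean log2(CPM + 0.5) of 25 ciliary genes on the vertical axis, and digits are replicates. Very low replicate 1 lies apart at the lower left (3.34 and 0.55), and the libraries with epithelial scores between 5.999 and 7.24 span ciliary scores from 2.10 to 5.41.

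Relative to the other ciliary genes of the same library, FOXJ1 and DNAH9 showed different orders. FOXJ1 minus the mean of the 24 other genes, in log2(CPM + 0.5), was -1.62, 1.86 and 1.74 in the very low libraries, 1.21, 1.74 and 0.39 in the low, 1.60, 0.33 and 0.70 in the high, and 0.26, 1.10 and -0.04 in the very high. DNAH9 on the same scale was -0.82, 1.21 and 0.67 in the very low libraries, 1.44, 1.80 and 0.31 in the low, 1.499, 0.94 and 1.73 in the high, and 1.24, 2.22 and 2.30 in the very high. In very low replicate 1 FOXJ1 had 0 reads and DNAH9 had 2, under the 3 reads a library without the gene allows, so their values there are set by the 0.5 added before the logarithm. The classes overlapped for both genes. The highest FOXJ1 values stood in the very low class and the highest DNAH9 values in the very high class. These genes were picked after their values were seen, and no test was made.

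**Figure D5:**
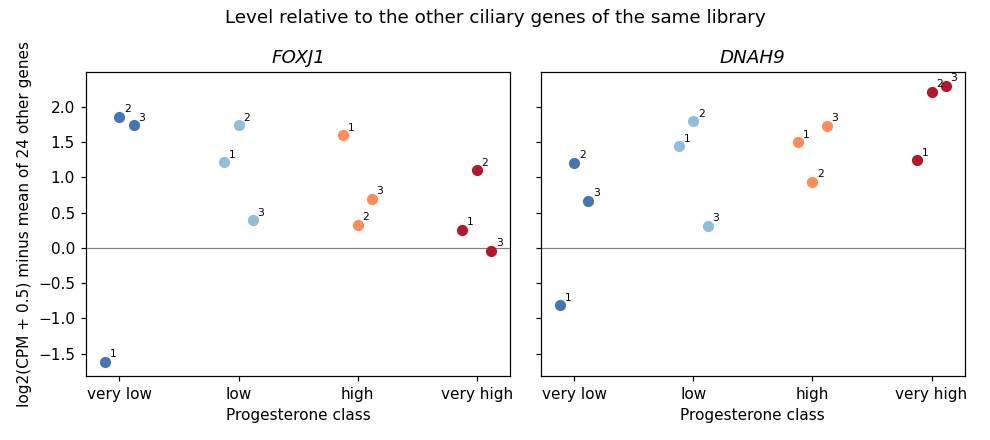
Points are libraries by progesterone class, with digits for replicates, and the vertical axis gives log2(CPM + 0.5) of FOXJ1 or DNAH9 minus the mean of the 24 other ciliary genes of the same library. Outside very low replicate 1, where both genes are under 3 reads and the added 0.5 sets the value, FOXJ1 runs from -0.04 to 1.86 and DNAH9 from 0.31 to 2.30, and the classes overlap in both panels.

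Further genes of the axoneme were examined for the same highest and lowest library. Of 131 other listed axonemal genes 65 were tested. Of these, 54 were highest in low replicate 2, 41 were lowest in very low replicate 1 and 34 were both. Over all genes these shares were 5.89%, 23.1% and 3.15%. The median log2 fold change of the 65 was -1.07 for high over low and 0.93 for low over very low, and 0 passed in any pair. For the slope 1 of the 65 passed, STK36, a kinase needed for the central pair, with a slope of 0.37 (SE 0.098, edgeR adjusted p = 0.0438), beside 7.48% of all genes. STK36 kept its call in 3 of the 12 fits that leave out a library, those without a low replicate. Among 18 tested genes of multiciliated cell fate and centriole amplification, and beside 5.89% of all genes, 2 were highest in low replicate 2. These included MYB, an early factor of multiciliated cells, with 0.353, 18.6 and 9.75 CPM in the very low libraries, 21.2, 43.2 and 6.51 in the low, 9.12, 11.5 and 8.18 in the high, and 5.15, 13.1 and 18.5 in the very high. For the slope 2 of the 18 passed, beside 7.48% of all genes. They were RFX5 (-0.37, edgeR adjusted p = 0.0353) and NEK2 (-0.71, edgeR adjusted p = 0.0372), and neither is specific to cilia. Of the 18, 14 had a negative slope and 10 an unadjusted edgeR p under 0.05, beside 3057 of all 10959 genes. Of the 12 fits that leave out a library, RFX5 passed in 5 and NEK2 in 4. Both calls were lost without any 1 of the very high or high replicates and without very low replicate 2, and that of NEK2 also without very low replicate 3.

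Intraflagellar transport, the traffic along the cilium that builds primary and motile cilia alike, was measured over the same libraries. Of its 21 tested genes, 8 were highest in low replicate 2, beside 5.89% of all genes. Of these 8, 2 were also lowest in very low replicate 1, and 3.15% of all genes were both. The BBSome and transition zone are the cargo complex and the gate at the base of cilia. Of their 21 tested genes, 7 were highest in low replicate 2, and 2 were both. The transport score stayed between 4.99 and 5.59 in the 12 libraries, and that of the BBSome and transition zone between 4.43 and 4.88. The score of the 65 other axonemal genes ran from 1.56 to 4.88. WDR19, a subunit of the retrograde transport complex, had 311, 366 and 332 CPM in the very high libraries, against 61.0, 84.4 and 84.6 CPM in the very low ones. These 2 classes did not overlap for WDR19, nor for 25.7% of all genes. Of the 21 tested transport genes, 4 did not overlap in this pair, WDR19 included. WDR19 rose in very high against very low by a log2 fold change of 2.13 (SE 0.35, edgeR adjusted p = 0.0358). It was the 1 of 21 tested transport genes that passed in that pair, beside 1.52% of all genes. The call was lost without very low replicate 2, high replicate 3 or any 1 of the very high replicates (edgeR adjusted p up to 0.0904). It was also lost in limma-voom and in edgeR with only the 6 libraries compared (adjusted p = 0.103). The same held in edgeR with the replicate number as a block (adjusted p = 0.0710) or both marker scores as covariates (adjusted p = 0.370). Over all alternatives the log2 fold change lay between 1.91 and 2.25. For the slope 2 of the 21 passed, beside 7.48% of all genes, WDR19 with 0.65 (edgeR adjusted p = 0.0224) and IFT80 with -0.30 (edgeR adjusted p = 0.0371). The WDR19 slope did not pass without very high replicate 2 or 3 or with both marker scores as covariates (edgeR adjusted p = 0.0583). The IFT80 slope passed in 3 of the 12 fits that leave out a library, those without very low replicate 1 or low replicate 1 or 3.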

How the data were processed

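Trizol RNA was cleaned with DNase, polyadenylated RNA was made into stranded TruSeq libraries, and an equal pool of all 12 was read in pairs on 1 instrument, per the labels' protocols. UMD3.1 and bosTau8 are the builds, and Trimmomatic 0.32 and FastQC 0.11.2 the tools, listed in the submitters' processing notes. Which aligner, counter and strand setting were used is not stated in the labels or notes used here. The authors deposited raw counts, as whole numbers for each gene symbol without scaling, with 1 column per sample.

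From these counts, edgeR 4.0.16 in R 4.3.3 fitted a quasi-likelihood model of 4 class means to all 12 libraries after filterByExpr with a count minimum of 10 and TMM scaling (factors 0.728 to 1.11), with 8 residual degrees of freedom and a common dispersion of 0.194. The 6 pairs and the joint test came from this model. A slope on class rank 1 to 4 was fitted in a separate edgeR model with its own dispersions. Each was adjusted by Benjamini and Hochberg over 10959 genes, with a threshold of 0.05. CPM were computed here from these counts and the TMM-scaled library sizes, and log2 fold changes are the first class over the second. Scores of gene lists are mean log2 CPM with a prior count of 2. The tests were run beforehand on simulated counts, drawn independently for each gene and library. Such counts lack the differences in tissue makeup between these libraries, so that run cannot show how the tests behave under them. Libraries of a class differed by far more than sampling noise, with a chi-square per degree of freedom of at least 22.6, so none was treated as a repeat.

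The members and the gene lists were chosen with earlier results of these data known. Genes given for every library are the regulators and, in each pair, the members with the smallest p in each direction, with CAPS, MYB and WDR19 added after their values were seen. Of the 29 members, 26 matched the RefSeq table by symbol and 3 by synonym (ARMC4, LRRC6 and TTC25). There, 14 members overlap another gene and 7 of these a tested gene: DNAH9, DNAH7, IQCG, SPAG17, CCDC113, CAPS and TPPP3. Coordinates are not given, since the builds differ. Alternatives were other size factors, no filter, DESeq2 1.42.0, voom of limma 3.58.1, thinning to the smallest total, a replicate block, marker scores as covariates, only the 6 libraries compared, and leaving out each library.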

Additional observations from a re-analysis of the deposited data

How the results depend on the processing

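No member passed the adjusted threshold in any of the 166 combinations of a comparison with an alternative, 20 or 21 alternatives for each comparison. In many of these combinations, among them all 21 for very high against high, 0 of all genes passed. There a count of 0 members says nothing about the members. With the replicate number from the titles as a replicate block, 0 members passed in every comparison. Whether the numbers pair the samples is not known. Of 18 pairs of libraries with the same number, 3 had deviations from their class means correlated above 0.1, over a range from -0.30 to 0.29. Leaving out each library in turn also gave 0 members past the threshold in every comparison, and in many of these fits 0 of all genes passed.

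The count over all genes, the background for the members, depended on the tool and on single libraries. For very high against very low it was 167 in edgeR, 1510 in DESeq2, 1 in limma-voom and 0 with the replicate block or with only the 6 libraries compared. Within edgeR, leaving out very low replicate 1 gave 643 genes and leaving out very low replicate 2 gave 1, while 0 passed once very high replicate 1 or 2 was dropped and 2 once very high replicate 3 was. For the slope it was 820 in edgeR, 2008 in DESeq2, 360 in limma-voom and 180 with the block. Leaving out very low replicate 1 gave 1462 genes and very low replicate 2 gave 119, while 36 passed once very high replicate 2 was dropped and 1 once very high replicate 3 was.

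The members' median log2 fold change moved most with both marker scores as covariates, to -1.36 for very high over very low, -3.43 for very high over low, -4.28 for high over low and -2.34 for high over very low. The smooth muscle score separates all low libraries from all high and very high ones, so score and class cannot be told apart there. Without covariates, the median stayed negative for high over low (-2.02 to -0.54) and for very high over low (-1.52 to -0.18) and positive for low over very low (0.16 to 1.89). It took both signs for very high over very low (-0.50 to 0.66), high over very low (-0.86 to 0.30), very high over high (-0.001 to 0.70) and the slope (-0.34 to 0.04). The cause was not tested.

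As limits, 6 members had no read in very low replicate 1, and each class had 3 libraries. Standard errors were above 1 log2 unit for many members, among them FOXJ1, DNAH9 and CCDC113. FOXJ1 reached 1053 reads and DNAH9 1095, and low replicates 2 and 3 were 25.2-fold and 27.7-fold apart in them. RSPH9, with at most 210 reads, had a standard error of 0.29 for very high over very low.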

Other observations

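Genes outside the gene lists also had the highest and lowest library of most ciliary genes. Over all 10959 tested genes, 183 were highest in low replicate 2, lowest in very low replicate 1 and at least 4-fold higher in low replicate 2 than in low replicate 3. They were 1.67% of the genes tested. The order of the other libraries was not part of this rule. Of the 183, 21 were members, 29 were other listed axonemal genes and 132 stood in no list. The genes named next were chosen after their values were seen.

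Among those in no list, LDLRAD1 had 0, 22.7 and 4.94 CPM in the very low libraries, 27.4, 47.2 and 0.289 in the low, 17.6, 4.97 and 11.73 in the high, and 9.15, 13.2 and 26.0 in the very high. DAW1, a factor for the import of outer dynein arms into cilia, had 0, 11.1 and 10.9 CPM in the very low libraries, 18.7, 43.2 and 1.74 in the low, 9.66, 2.55 and 6.55 in the high, and 2.97, 11.3 and 10.8 in the very high. Both genes had their highest and lowest library in common with FOXJ1.

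The 132 also held genes not known as parts of cilia. NR4A1, an immediate early gene, had 4.07, 134.7 and 23.1 CPM in the very low libraries, 7.78, 499 and 19.8 in the low, 124, 4.85 and 18.1 in the high, and 9.73, 10.3 and 9.50 in the very high. Its low replicate 1 lay below low replicate 3. In all 25 ciliary genes highest in low replicate 2, low replicate 3 was the lowest of its class. Immediate early EGR3 had 83.2 CPM in low replicate 2, against no read in very low replicate 1 and 1.85 and 0.724 CPM in low replicates 1 and 3. It had 8.78 and 2.86 CPM in very low replicates 2 and 3. In the high libraries it had 18.4, 0.255 and 0.682 CPM, and in the very high 0.686, 0.748 and 0.923. ANPEP, an aminopeptidase of epithelial surfaces, had 548.5, 2021 and 167 CPM in the low libraries. It had 23.5, 134 and 169 CPM in the very low libraries, 180, 55.9 and 180 in the high, and 106, 141 and 49.2 in the very high.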
